A study of Mus musculus with 18 samples.

Results

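Islets of 6 mice that made human islet amyloid polypeptide (IAPP) were compared with islets of 6 mice that made the rodent peptide. These were 12 of the 18 libraries of the study, and all 20244 genes that passed a filter on low counts were tested. Every mouse was 6 weeks old and on the FVB background. In hIAPP mice the added gene encoded the human peptide, and in rIAPP mice the rodent one. Both transgenes were under the insulin II promoter, which is active in beta cells. WT mice carried neither transgene. The titles give each library a mouse number of its own, and the replicate numbers used here only name a library. Their 6 libraries stayed out of the contrast, shared in the estimate of the spread, and are given as the level without a transgene. Members were chosen by the genotype in the labels, not by any measured value. The sources used here give no copy number, insertion site or number of lines, so the peptide, the dose of the transgene and its insertion site cannot be told apart in this contrast.

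IAPP is a hormone stored with insulin in the granules of beta cells and released with it. The human peptide can aggregate and forms the amyloid seen in islets of people with type 2 diabetes. The rodent peptide has prolines in the stretch that drives aggregation and does not form amyloid. Islets with the rodent transgene therefore serve as a control for the overproduction of a secreted peptide as such. An islet also holds alpha, delta and PP cells, a dense capillary bed, and resident macrophages, and isolated islets can carry exocrine tissue along.

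Libraries were deep in both genotypes, with totals of 110 to 142 M (mega) counts in hIAPP and 128 to 158 M in rIAPP. The tissue matched its label. Levels below are CPM, counts relative to the library's total after a correction for composition, which are not corrected for gene length. The hormone genes were abundant in every library, with 18736 to 26009.5 CPM of Gcg (glucagon) in hIAPP and 18335 to 31501 in rIAPP, and a median of 1273 and 1305 CPM of Sst (somatostatin). Neither Gcg, Sst nor Ppy (pancreatic polypeptide) passed the test between the genotypes (edgeR adjusted p = 0.183, 0.645 and 0.418). Ins1 and Ins2 together took 4.71% to 9.63% of the counts in hIAPP and 4.18% to 6.21% in rIAPP, ranges that overlapped (exact two-sided permutation p = 0.0216, 0.0693 adjusted over 4 library measures). Of these, Ins1 was at 16976 to 42287 CPM (median 37985) in hIAPP and 14049 to 25358 CPM (median 17433) in rIAPP, and Ins2 at 24991 to 50255 CPM (median 46556) and 25617 to 36274 CPM (median 30733). Both insulin genes passed as higher in hIAPP than in rIAPP, with log2 fold changes of 0.83 ± 0.18 (edgeR adjusted p = 0.00133) and 0.42 ± 0.14 (0.0262), each ± its SE. In WT the 2 genes took 8.92% to 10.2% of the counts (mean 9.49%), above the means of 7.64% in hIAPP and 5.12% in rIAPP. The WT range of Ins1 overlapped only the hIAPP range, and that of Ins2 neither. The Ins2 call was lost when any of hIAPP 1 to 4 or rIAPP 1, 2 or 5 was left out, with the acinar score described below or the mouse number as a covariate, with no filter on low counts, and in a fit of the 12 transgenic libraries alone (edgeR adjusted p = 0.0529 to 0.137 over these fits). In bulk islets a different number of cells of a type and a different amount of RNA per cell cannot be told apart, here and for every cell type below.

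On the first principal component of the 12 libraries, which held 37.0% of the variance of the 2000 most variable genes, the genotypes lay apart. The hIAPP libraries had scores of 29.1 to 40.8 and the rIAPP libraries of -39.9 to -25.2. The second component (14.0%) set hIAPP 5 (-30.8), hIAPP 6 (-31.5) and rIAPP 1 (-33.8) off from the other 9 libraries, which lay between -4.01 and 36.2. The share of counts from acinar genes, which encode digestive enzymes, was 1.47% and 2.39% in hIAPP 5 and hIAPP 6 and 0.307% to 0.950% in the other hIAPP libraries. In rIAPP it was 0.570% to 2.34%. The part of exocrine tissue in the results was not tested, but counts that the text leads with were also made without hIAPP 5 and hIAPP 6 and with the acinar score as a covariate.

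**Figure D1:**
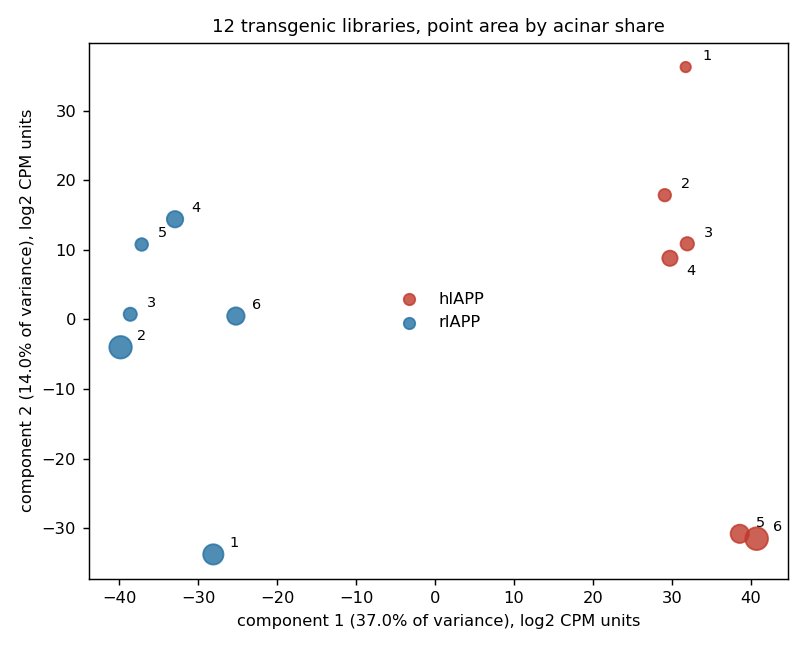
Scores of the 12 transgenic libraries on the first 2 principal components of log2 CPM, hIAPP in red and rIAPP in blue, with the library number beside each point and the area of a point growing with the acinar share of its counts. The genotypes separate along component 1, and hIAPP 5, hIAPP 6 and rIAPP 1 have the lowest scores on component 2.

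A gene was called where its edgeR adjusted p was under 0.05. Of the 20244 genes, 5586 were called (27.6%), of which 2730 lay above rIAPP (13.5%) and 2856 below it (14.1%). Differences are given as log2 fold changes of hIAPP over rIAPP with their SE, where 1 is 2-fold. Most were small, with a median of 1.40-fold among the called genes and 3200 of them under 1.5-fold. At least 2-fold were 1280 genes (6.32%), 615 higher and 665 lower, and at least 4-fold were 133 higher and 197 lower. The ranges of the 6 and 6 libraries did not overlap for 2706 genes (13.4%). In the same fit 15.8% of the genes were called for hIAPP against WT and 26.8% for rIAPP against WT. Those comparisons share libraries with each other and with the main one, so their values are only set side by side below. On the autosomes and X, the share of tested genes that were called ran from 23.8% on chromosome 7 to 33.3% on X. Of protein-coding genes 4930 of 15203 were called (32.4%), and of long intergenic RNAs 133 of 729 (18.2%). The counts for gene lists below are to be read beside these shares. The lists are made up mainly of protein-coding genes, so 32.4% is the closer share, also where 27.6% is given. A list near these shares holds no more calls than genes at large.

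**Figure D2:**
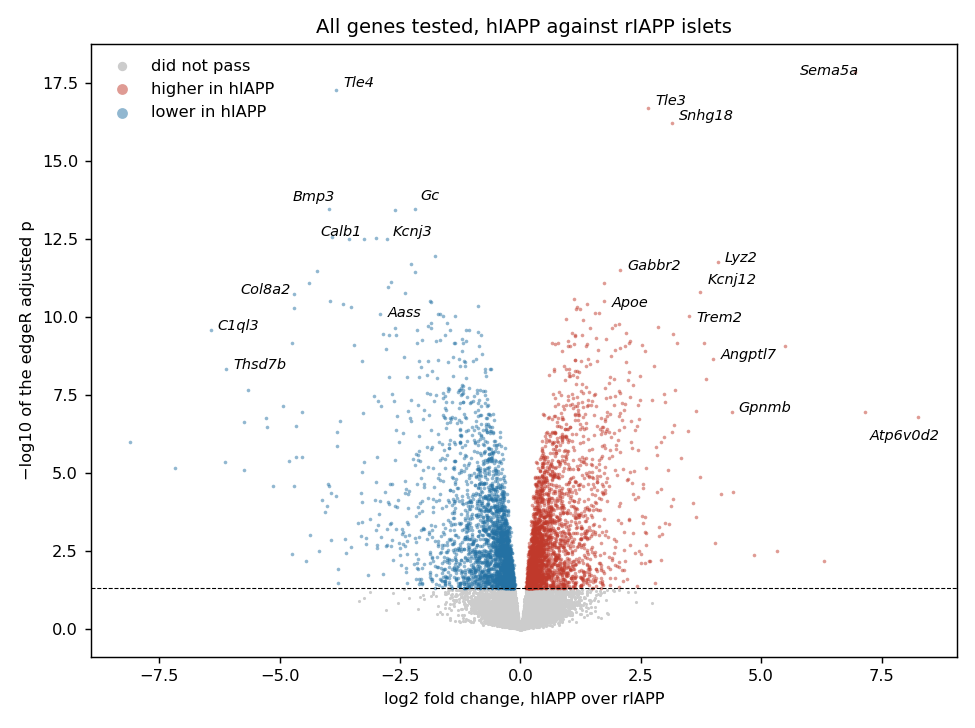
Each point is 1 of the 20244 genes tested, by its log2 fold change of hIAPP over rIAPP (horizontal) and the −log10 of its edgeR adjusted p (vertical), with the dashed line at 0.05. Sema5a, Tle3 and Snhg18 have the smallest p among the genes higher in hIAPP, and Tle4 among those lower.

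Among the genes with the smallest p and the largest fold changes were corepressors of transcription, ion channels and secreted proteins, and for most of them the WT level lay with hIAPP. Tle4, a Groucho corepressor of transcription, was at 7.66 to 8.74 CPM (median 8.49) in hIAPP, 102 to 133 CPM (median 118) in rIAPP and 7.43 to 9.61 CPM (median 8.80) in WT. The log2 fold change of hIAPP over rIAPP was -3.82 ± 0.08 (SE, edgeR adjusted p = 5.45e-18). Its paralog Tle3 went the other way, at 92.6 to 113 CPM (median 106) in hIAPP and 16.2 to 17.7 CPM (median 16.7) in rIAPP (2.64 ± 0.06, edgeR adjusted p = 2.08e-17). For both genes the 6 hIAPP libraries were all on the same side of the 6 rIAPP libraries, and the WT libraries (90.8 to 113 CPM of Tle3) fell in or beside the hIAPP range. Of the 10 lower genes with the smallest p, the WT range overlapped only the hIAPP range for 8 and neither range for 2. Of the 10 higher genes with the smallest p, it overlapped only hIAPP for 6, only rIAPP for 2 and neither for 2.

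Several genes were at or near the WT level in hIAPP islets and far above it in rIAPP islets. C1ql3, a secreted synaptic organiser, was at 0.00825 to 0.171 CPM (median 0.0566) in hIAPP and 3.83 to 8.05 CPM (median 6.04) in rIAPP, beside 0.0654 to 0.127 in WT. Its log2 difference of -6.44 ± 0.40 (edgeR adjusted p = 2.59e-10) rests on a count near 0 in hIAPP, so its size depends on the prior count. It is overlapped by 2 gene models on the other strand, of which Gm37811 was lower too (-5.27 ± 0.54, edgeR adjusted p = 3.29e-07) and the other did not pass. The strand setting of the counts is not given, so their reads cannot be told apart. Calb1, a calcium buffer known from neurons, was at 16.3 to 26.7 CPM (median 22.0) in hIAPP and 157 to 242 CPM (median 204) in rIAPP (-3.25 ± 0.13, edgeR adjusted p = 3.20e-13). Gc, the vitamin D binding protein, which alpha cells also make, was at 76.1 to 98.6 CPM (median 92.1) in hIAPP and 367 to 472 CPM (median 408.1) in rIAPP (-2.19 ± 0.08, edgeR adjusted p = 3.51e-14). None of these ranges overlapped, and every rIAPP library stood above every WT library for all 3 genes (22.0 to 31.0 CPM of Calb1 and 59.5 to 71.3 of Gc in WT).

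Kcnj3, an inwardly rectifying potassium channel gated by G proteins, had a log2 difference of -2.77 ± 0.11 (edgeR adjusted p = 3.20e-13), with medians of 4.28 CPM in hIAPP and 31.3 in rIAPP. For the atypical cadherin Fat3 the medians were 2.05 and 29.2 CPM (-3.92 ± 0.15). Drd2, the dopamine D2 receptor, and Gabra3, a subunit of the GABA-A receptor, were at medians of 0.0930 and 0.156 CPM in hIAPP and 1.06 and 3.81 in rIAPP. Mapk4, an atypical MAP kinase, was at 4.84 and 39.7 CPM (-3.00 ± 0.12). For all 15 lower genes with the largest fold change among those of at least 1 CPM, the WT range overlapped the hIAPP range and not the rIAPP range.

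Among the genes higher in hIAPP, Kcnj12, another inward rectifier, was at 4.99 to 11.4 CPM (median 9.02) in hIAPP and 0.521 to 0.909 CPM (median 0.555) in rIAPP, beside 9.31 to 12.9 in WT. The log2 difference was 3.73 ± 0.19 (edgeR adjusted p = 1.56e-11). The voltage-gated channel subunit Kcng3 was at 4.68 to 9.21 CPM (median 7.91) and 0.259 to 0.835 CPM (median 0.459) (3.86 ± 0.31, edgeR adjusted p = 1.01e-08), and the secreted protein Angptl7 at 21.4 to 38.6 CPM (median 31.1) and 0.946 to 3.22 CPM (median 1.91) (4.001 ± 0.29, edgeR adjusted p = 2.27e-09). Each of these was low in rIAPP only, with hIAPP and WT ranges that overlapped. Gabbr2, a subunit of the GABA-B receptor, had a log2 difference of 2.07 ± 0.09, and Cdon, a co-receptor of hedgehog signalling, of 1.12 ± 0.06 (edgeR adjusted p = 3.10e-12 and 2.68e-11). The medians of Gabbr2 were 95.3 CPM in hIAPP, 22.2 in rIAPP and 83.3 in WT.

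Htr2b, a serotonin receptor that beta cells use in pregnancy, followed another order. It was at 0.707 to 2.24 CPM (median 1.24) in hIAPP, 0.0548 to 0.216 CPM (median 0.0946) in rIAPP and 0.0536 to 0.151 CPM (median 0.0994) in WT, so here the hIAPP libraries stood apart from both others. The log2 difference was 3.64 ± 0.35 (edgeR adjusted p = 1.04e-07). Of the 15 higher genes with the largest fold change, the WT range overlapped only hIAPP for 6, only rIAPP for 6, neither for 2 and both for 1. That 1 was Reg3a, a secreted lectin of stressed acinar and islet cells, with a median of 2.49 CPM in hIAPP (hIAPP 5 at 18.5) and 0.0342 to 0.870 CPM (median 0.330) in rIAPP, with ranges that overlapped, and its call was lost without hIAPP 5 and hIAPP 6.

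Genes beside the most changed genes were looked up after their values had been seen. Snhg18, a long noncoding RNA gene (chromosome 15, 32240565 to 32244662, minus strand, GRCm38, GENCODE M21), lies 147 bases from Sema5a, the membrane semaphorin with the smallest p of all genes (chromosome 15, 32244810 to 32696341, plus strand). Snhg18 was at 79.7 to 104 CPM (median 97.8) in hIAPP, 9.14 to 11.5 CPM (median 11.1) in rIAPP and 5.87 to 6.92 CPM (median 6.48) in WT (3.14 ± 0.08, edgeR adjusted p = 6.31e-17). In hIAPP it stood far above both other genotypes, as did Sema5a (777 to 994 CPM in hIAPP, 6.03 to 8.87 in rIAPP). Of the 4 other genes tested within 500 kb of Sema5a, Snhg18 was called higher and 3 lower, beside 13.5% and 14.1% of all genes. Among the lower genes were Sdc2, a cell surface proteoglycan (-0.73 ± 0.06), and Cpq, a peptidase (-0.90 ± 0.08). The WT range of Sdc2 overlapped hIAPP and not rIAPP, and that of Cpq overlapped rIAPP and not hIAPP. Snhg18 and Sema5a run away from each other and do not overlap.

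The BMP ligand gene Bmp3 (chromosome 5, 98854415 to 98884396, plus strand) and Prkg2, a cGMP-dependent kinase (chromosome 5, 98929773 to 99037351, minus strand), are 45376 bases apart. Their log2 differences were -3.97 ± 0.14 and -3.96 ± 0.21 (edgeR adjusted p = 3.51e-14 and 3.04e-11). Against WT they were 3.93 and 2.99 in rIAPP and -0.04 and -0.97 in hIAPP. Of the 3 other genes tested within 500 kb of Bmp3, Prkg2 was the only 1 called, beside 27.6% called over all genes. Around C1ql3, 3 of 10 other genes were called, all lower, near the share of 27.6% over all genes. They included Gm37811, whose reads cannot be told apart from those of C1ql3. Pter, a hydrolase-like protein gene, was 1 base away (-1.06 ± 0.15, edgeR adjusted p = 1.51e-05), and the remaining called gene 497207 bases away.

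The mouse gene Iapp (chromosome 6, 142298423 to 142303961, plus strand) was at 20876 to 30706 CPM (median 24436) in hIAPP, 32829.9 to 43833 CPM (median 39114) in rIAPP and 25590.5 to 40079 CPM (median 33819) in WT. Its log2 fold change was -0.61 ± 0.11 (edgeR adjusted p = 3.52e-04), and no hIAPP library reached the lowest rIAPP library. Whether reads of either transgene were counted under Iapp is not given in the sources used here, so the gene does not check the labels. Of 9 tested genes for subunits of the amylin receptor and for proteases that degrade IAPP, 1 was higher and 2 lower (2 and 2 without hIAPP 5 and hIAPP 6). That was 33.3% called, beside 27.6% over all genes and 32.4% of protein-coding genes. Bace2, a protease of beta cells, was higher (0.56 ± 0.12, edgeR adjusted p = 0.00128), with medians of 199 CPM in hIAPP, 127 in rIAPP and 248 in WT. The receptor partner Ramp3 was lower (-0.52 ± 0.11, edgeR adjusted p = 0.00111), as was the protease neprilysin, Mme (-0.88 ± 0.26, edgeR adjusted p = 0.0137), whose ranges overlapped.

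Genes of beta cell identity were more often higher than lower in hIAPP. Of 20 beta cell transcription factors and identity genes tested, 9 were higher, 3 lower and 8 did not pass, with a median log2 difference of 0.13 beside 0.00 over all genes. Pdx1, the regulator of pancreas formation and of insulin transcription, was at 107 to 176 CPM (median 144) in hIAPP and 72.0 to 104 CPM (median 83.3) in rIAPP (0.76 ± 0.10, edgeR adjusted p = 1.32e-05). Nkx6-1, which keeps beta cells distinct from other endocrine cells, was at 207 to 287 CPM (median 247) and 131 to 158 CPM (median 152) (0.73 ± 0.09, edgeR adjusted p = 2.29e-06), and Mnx1 at 10.9 to 17.2 CPM (median 13.2) and 4.54 to 6.91 CPM (median 6.63) (1.13 ± 0.10, edgeR adjusted p = 7.26e-08). The 6 and 6 libraries did not overlap for any of these 3 genes. All 3 were below WT in rIAPP (log2 -1.07, -0.97 and -1.29), and the hIAPP values against WT were -0.31, -0.24 and -0.16.

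Mafa, which drives insulin transcription in mature beta cells, was chosen after its values were seen. It was at 64.7 to 164 CPM (median 128) in hIAPP, 39.0 to 67.5 CPM (median 46.9) in rIAPP and 224 to 379 CPM (median 307) in WT, so hIAPP lay between the others. The log2 difference from rIAPP was 1.33 ± 0.19 (edgeR adjusted p = 1.51e-05), but the lowest hIAPP library (64.7 CPM, hIAPP 5) reached into the rIAPP range. The 3 lower genes included the nuclear receptors Hnf4a (-0.53 ± 0.08) and Esrrg (-0.53 ± 0.12), both active in beta cells (edgeR adjusted p = 3.60e-05 and 0.00172). Of these, Hnf4a was at 19.9 to 25.6 CPM (median 21.4) in hIAPP and 28.4 to 33.4 CPM (median 31.6) in rIAPP, with no overlap.

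Genes that couple glucose to electrical activity were also more often higher than lower. Glucose entering the beta cell raises ATP, which closes a potassium channel built from the products of Abcc8 and Kcnj11. Of 15 genes of glucose sensing and this channel, 7 were higher, 1 lower and 7 did not pass, with a median of 0.27 (hIAPP minus WT -0.06, rIAPP minus WT -0.51). Kcnj11, the pore subunit, was at 76.0 to 111 CPM (median 97.8) in hIAPP, 42.7 to 62.6 CPM (median 57.1) in rIAPP and 86.2 to 103 CPM (median 93.0) in WT (0.78 ± 0.10, edgeR adjusted p = 4.13e-06). Its partner Abcc8 differed by 1.44 ± 0.09. Pcx, the pyruvate carboxylase that feeds the citric acid cycle, was at 109 to 151 CPM (median 139) and 48.0 to 77.0 CPM (median 56.4) (1.13 ± 0.11, edgeR adjusted p = 1.39e-07). The rIAPP libraries were low for all 3 genes, with no overlap with hIAPP. Slc2a2, the GLUT2 glucose transporter, was chosen after its values were seen and was less even, at 379.7 to 1046 CPM (median 854) in hIAPP and 183 to 656 CPM (median 291) in rIAPP (1.07 ± 0.26, edgeR adjusted p = 0.00404). The lower gene was Glud1, glutamate dehydrogenase (-0.18 ± 0.05, edgeR adjusted p = 0.00991).

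**Figure D3:**
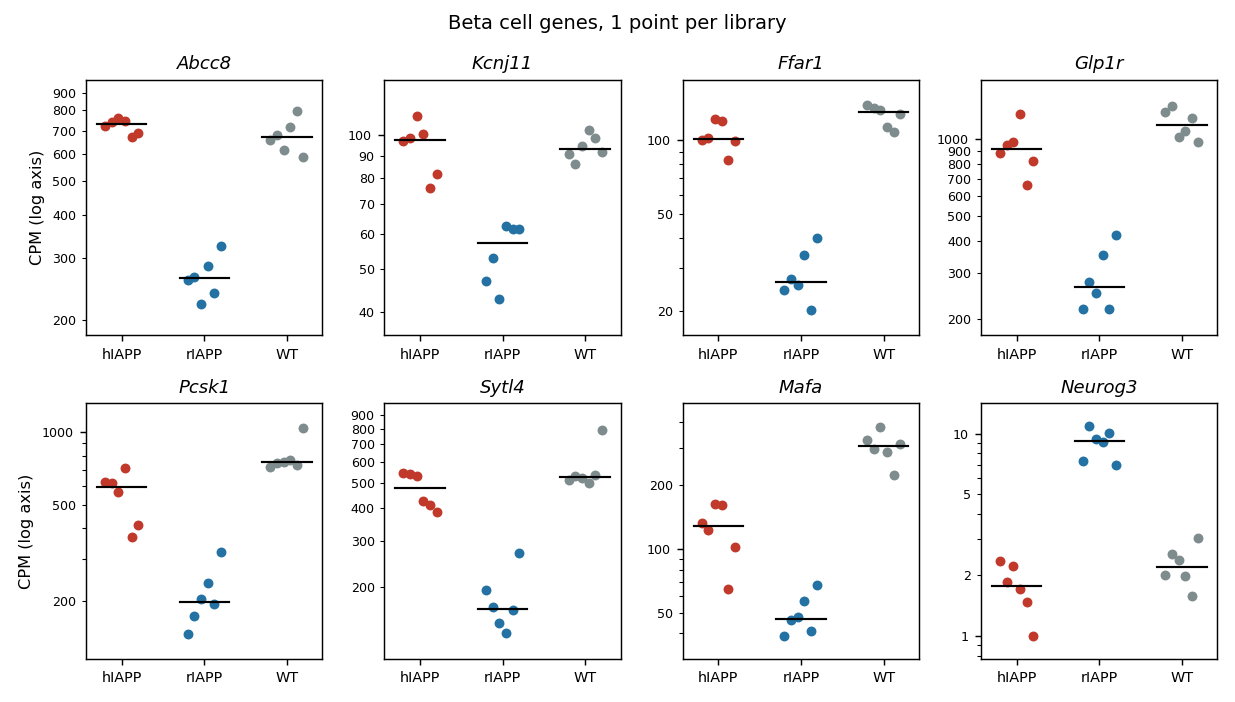
CPM on a log axis of 8 beta cell genes in each library of hIAPP (red), rIAPP (blue) and WT (grey), with the bar at the median of 6 libraries. For Abcc8, Kcnj11, Ffar1, Glp1r, Pcsk1 and Sytl4 the rIAPP libraries lie below all hIAPP libraries, Mafa is highest in WT, and Neurog3 is high only in rIAPP.

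In the granule, where proinsulin is folded, cut and stored, 10 of 19 genes were higher, 3 lower and 6 did not pass (median 0.24). Pcsk1, the convertase that starts the cutting of proinsulin, was at 369.6 to 711 CPM (median 592) in hIAPP, 146 to 320.2 CPM (median 199) in rIAPP and 719.7 to 1038 CPM (median 752) in WT (1.37 ± 0.17, edgeR adjusted p = 5.11e-06). Ero1b, the oxidase that forms disulphide bonds in proinsulin, was at 1246 to 2290.3 CPM (median 1852) and 452 to 1229.6 CPM (median 559.7) (1.42 ± 0.20, edgeR adjusted p = 1.30e-05). Neither pair of ranges overlapped. Vgf, a granule protein and source of peptides, was at 21.4 to 34.1 CPM (median 26.7) in hIAPP, 3.07 to 7.87 CPM (median 5.54) in rIAPP and 9.32 to 11.2 CPM (median 10.7) in WT (2.27 ± 0.18, edgeR adjusted p = 5.72e-09). For Vgf, hIAPP lay above WT and rIAPP below it, with log2 values of 1.34 and -0.92. The 3 lower genes were Iapp, Chga (-0.53 ± 0.13, edgeR adjusted p = 0.00541), a granin, and Nucb2 (-0.41 ± 0.11, edgeR adjusted p = 0.00754), the precursor of nesfatin. These counts, made without hIAPP 5 and hIAPP 6, were again 10 and 3. Without the 10 most abundant genes of the libraries, which include Ins1, Ins2, Iapp and Chga, 6 genes of the list were higher. Members taken out in this way were not tested in that fit, so the 6 are not out of the same 19.

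Genes of calcium entry and exocytosis were split, with 6 of 23 higher, 5 lower and 12 not passing (median 0.05). Sytl4, granuphilin, which docks granules at the membrane, stood out at 386.8 to 543 CPM (median 477) in hIAPP and 134 to 269.6 CPM in rIAPP (1.39 ± 0.15, edgeR adjusted p = 8.04e-07). It separated the genotypes fully. The calcium channel subunit Cacna2d1 (-0.37 ± 0.06) and the syntaxin Stx1a (-0.48 ± 0.09) were lower in hIAPP (edgeR adjusted p = 6.38e-05 and 4.66e-04). The counts were 4 higher and 3 lower without hIAPP 5 and hIAPP 6, and 3 were lower without hIAPP 5 alone.

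Receptors that tune insulin secretion held the largest share of higher genes among the lists of beta cell function, with 14 of 20 higher, 2 lower and 4 not passing. Their median was 0.53 (hIAPP minus WT -0.12, rIAPP minus WT -0.49). Ffar1, the receptor for long-chain fatty acids, was at 83.1 to 122 CPM (median 101) in hIAPP, 20.3 to 39.96 CPM (median 26.5) in rIAPP and 109 to 139.8 CPM (median 131) in WT (1.87 ± 0.13, edgeR adjusted p = 1.81e-09). Ffar3, for short-chain fatty acids, was at 6.29 to 10.5 CPM (median 7.80), 1.17 to 2.21 CPM (median 1.67) and 7.23 to 10.1 CPM (median 9.57) (2.26 ± 0.15, edgeR adjusted p = 6.78e-10). The hIAPP and rIAPP libraries did not overlap for either. Adra2a, the adrenergic receptor that restrains secretion, was at 57.5 to 76.1 CPM (median 67.3) in hIAPP and 25.4 to 32.8 CPM (median 28.6) in rIAPP (1.22 ± 0.09, edgeR adjusted p = 5.74e-09). Glp1r, the receptor of the incretin GLP-1, was chosen after its values were seen and was at 661 to 1257 CPM (median 918) and 217 to 424 CPM (median 265) (1.67 ± 0.16, edgeR adjusted p = 1.68e-07). The higher receptors included both activators and an inhibitor of secretion. The 2 lower receptors were Ptger3 (-0.63 ± 0.16), for prostaglandin E, and Gpr119 (-0.74 ± 0.23), for lipid amides (edgeR adjusted p = 0.00493 and 0.0186). The Gpr119 call was lost without hIAPP 5 and hIAPP 6 and without rIAPP 3.

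Genes of immature beta cells or normally silenced in mature ones were lower in 7 of 21 cases, higher in 3, and 11 did not pass (median -0.12). Neurog3, the factor that commits endocrine progenitors, was at 0.998 to 2.34 CPM (median 1.77) in hIAPP, 6.99 to 10.9 CPM (median 9.23) in rIAPP and 1.58 to 3.04 CPM (median 2.18) in WT (-2.35 ± 0.19, edgeR adjusted p = 8.67e-09). Cd81, a tetraspanin of immature beta cells, was at 108 to 135 CPM (median 119) in hIAPP and 160.4 to 246 CPM (median 236) in rIAPP (-0.87 ± 0.09, edgeR adjusted p = 5.38e-07). The rIAPP libraries stood above all hIAPP libraries for both genes. Pdgfra, a growth factor receptor that mesenchymal cells also carry, had a log2 difference of -1.66 ± 0.21 (edgeR adjusted p = 3.79e-06). The higher genes included the hexokinase Hk2 (1.44 ± 0.29, edgeR adjusted p = 6.80e-04), whose ranges overlapped.

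Genes of alpha, delta, PP and epsilon cells were called in 3 of 16 cases, 1 higher and 2 lower (2 and 1 without hIAPP 5 and hIAPP 6). Slc38a5, an amino acid transporter known from proliferating alpha cells, was at 4.31 to 7.01 CPM (median 5.10) in hIAPP, 27.3 to 41.3 CPM (median 33.7) in rIAPP and 4.42 to 6.62 CPM (median 5.98) in WT (-2.69 ± 0.13, edgeR adjusted p = 7.65e-12). Slc7a2, the transporter of arginine and lysine, was at 292 to 362 CPM (median 320.0), 94.4 to 168 CPM (median 124) and 269.9 to 390.3 CPM (median 301) (1.36 ± 0.11, edgeR adjusted p = 1.75e-08). In both cases rIAPP was the genotype that stood apart. The other lower gene was Gpr119, described above.

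Macrophage genes were the group with the largest median difference, 1.85 (hIAPP minus WT 1.40, rIAPP minus WT -0.29). Of 17 markers, 15 were higher, 1 was lower and 1, Cd14 (0.02, edgeR adjusted p = 0.945), did not pass. The summed level of the 17 genes was 476 to 971 CPM in hIAPP, 126 to 142 in rIAPP and 177 to 209 in WT. Lyz2, lysozyme, was at 151 to 343 CPM (median 206) in hIAPP and 10.7 to 15.6 CPM (median 12.6) in rIAPP (4.10 ± 0.18, edgeR adjusted p = 1.81e-12). Mpeg1, a pore-forming protein of macrophages, was at 67.7 to 170.1 CPM (median 100.4) and 17.0 to 20.8 CPM (median 18.8) (2.53 ± 0.17, edgeR adjusted p = 7.99e-10). All hIAPP libraries were above all rIAPP libraries for both, and hIAPP 5 was the highest (343 CPM of Lyz2). Mrc1, the mannose receptor, was the lower marker (-0.43 ± 0.14, edgeR adjusted p = 0.0204), a call lost without rIAPP 3.

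Within the genes of lipid-laden macrophages the members split, with 6 of 14 higher, 3 lower and 5 not passing (median 0.37). Trem2, a lipid-sensing receptor of phagocytes, was at 6.14 to 12.8 CPM (median 7.38) in hIAPP, 0.440 to 0.979 CPM (median 0.765) in rIAPP and 1.14 to 1.57 CPM (median 1.25) in WT (3.50 ± 0.20, edgeR adjusted p = 9.24e-11). Gpnmb, a glycoprotein of phagocytic macrophages, was at 12.0 to 73.9 CPM (median 17.3) and 0.820 to 2.20 CPM (median 1.41) (4.39 ± 0.42, edgeR adjusted p = 1.15e-07). Atp6v0d2, a proton pump subunit of osteoclasts and macrophages, was at 1.06 to 13.7 CPM (median 2.19) in hIAPP and 0 to 0.0440 CPM (median 0.00720) in rIAPP. For each of these 3 genes the genotypes were fully apart and hIAPP 5 was the highest library. The fitted value for Atp6v0d2 (8.26) depends on the prior count, since rIAPP was near 0. Lpl, lipoprotein lipase, was lower in hIAPP, at 55.8 to 76.6 CPM (median 60.4) against 91.0 to 100.2 CPM (median 97.1) in rIAPP (-0.64 ± 0.09, edgeR adjusted p = 2.50e-05). Lpl is also made outside macrophages, for example by fat and muscle cells.

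Antigen presentation genes of class II, which macrophages and other presenting cells use, were lower where they passed. Of 8 tested, none was higher and 4 were lower, with a median of -0.57 (hIAPP minus WT -0.55, rIAPP minus WT -0.10). Cd74, the invariant chain, was at 23.4 to 43.7 CPM (median 31.6) in hIAPP, 52.0 to 69.4 CPM (median 60.8) in rIAPP and 59.9 to 83.7 CPM (median 66.7) in WT (-0.87 ± 0.13, edgeR adjusted p = 2.88e-05). H2-Aa and H2-Ab1, which encode the peptide-binding chains, differed by -0.85 ± 0.14 and -0.88 ± 0.16 (edgeR adjusted p = 7.84e-05 and 2.04e-04). No hIAPP library reached the rIAPP range for any of the 3. The summed class II level was 52.0 to 106 CPM in hIAPP and 126 to 150 in rIAPP. The median was -0.94 with 6 lower when hIAPP 5 and hIAPP 6 were left out.

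**Figure D4:**
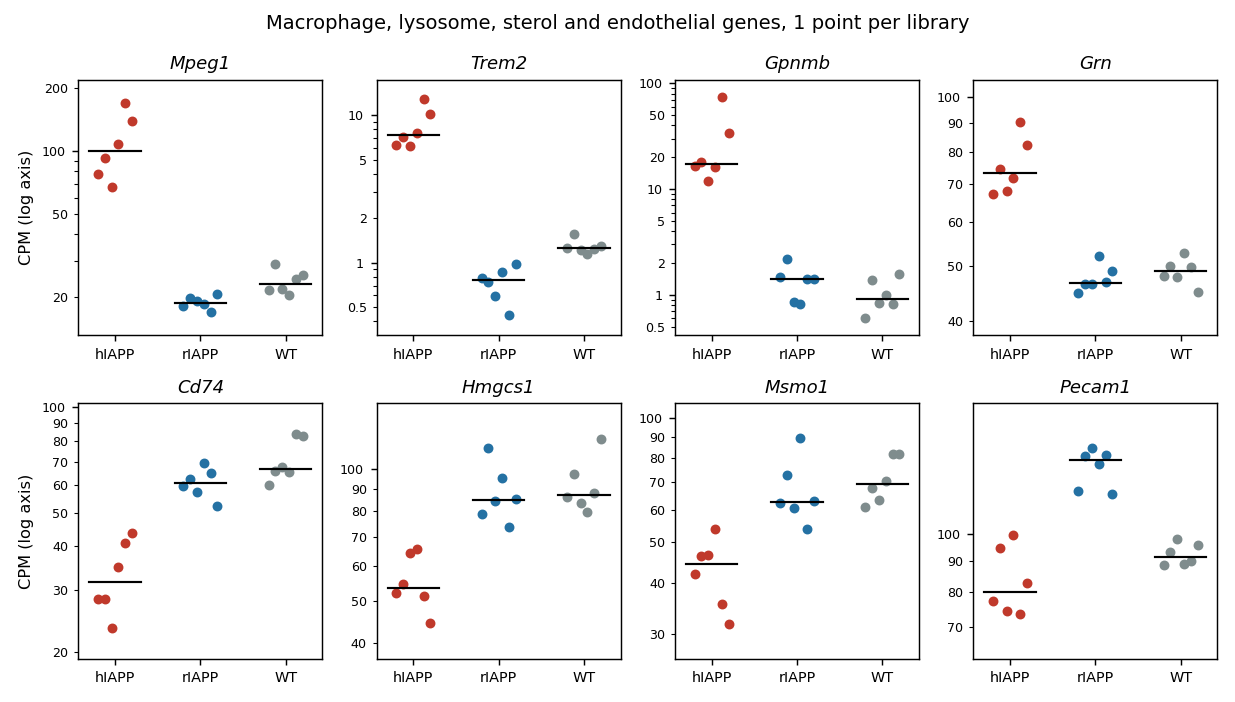
CPM on a log axis of 8 genes of macrophages (Mpeg1, Trem2, Gpnmb), lysosomes (Grn), antigen presentation (Cd74), cholesterol synthesis (Hmgcs1, Msmo1) and endothelium (Pecam1) in each library of hIAPP (red), rIAPP (blue) and WT (grey), with the bar at the median. The first 4 genes are high in hIAPP, Cd74, Hmgcs1 and Msmo1 are low in hIAPP, and Pecam1 is high in rIAPP.

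Of 14 lymphocyte markers only 8 passed the filter, 4 of them higher and none lower, so the count does not speak for the whole list. Cd3e, Cd3d, Cd8a and Ms4a1, which mark T and B cells, were among the 6 that did not reach it. Cd4, which macrophages can also carry, was at 1.44 to 4.70 CPM (median 1.70) in hIAPP and 0.183 to 0.476 CPM (median 0.236) in rIAPP (2.98 ± 0.33, edgeR adjusted p = 7.17e-07), and the interleukin-7 receptor Il7r at 1.05 to 4.54 CPM (median 2.01) and 0.308 to 0.555 CPM (median 0.508) (2.27 ± 0.30, edgeR adjusted p = 9.65e-06). Both were higher in all hIAPP libraries than in any rIAPP library. In each case hIAPP 5 was the highest library, as for Lyz2. The part of lymphocytes in these values was not tested.

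Chemokine and interleukin-1 genes were called in both directions, 6 higher and 3 lower of 18 tested (4 and 4 without hIAPP 5 and hIAPP 6). Cxcl16, a chemokine and scavenger receptor of myeloid cells, was at 8.29 to 14.3 CPM (median 10.5) in hIAPP and 4.42 to 6.99 CPM (median 5.91) in rIAPP (0.87 ± 0.14, edgeR adjusted p = 5.83e-05). Csf1, the growth factor of macrophages, was at 8.02 to 11.8 and 6.24 to 7.40 CPM (0.51 ± 0.09, edgeR adjusted p = 1.65e-04), and WT (10.1 to 12.7 CPM) overlapped hIAPP and reached higher. Cx3cl1, fractalkine, was at 11.1 to 16.1 CPM (median 12.4) in hIAPP and 19.9 to 33.0 CPM (median 29.3) in rIAPP (-1.12 ± 0.11, edgeR adjusted p = 1.78e-07). The alarmin Il33 was also lower in hIAPP (-1.51 ± 0.24, edgeR adjusted p = 7.14e-05), where rIAPP (1.88 to 2.93 CPM) stood above both hIAPP (0.361 to 1.37) and WT (0.553 to 0.916).

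Interferon response genes were lower in 7 of 25 cases and higher in 3, with 15 not passing (median -0.22), and without rIAPP 2 in 4 cases. Ifih1, the RNA sensor MDA5, was at 10.1 to 13.0 CPM (median 11.5) in hIAPP and 20.7 to 28.1 CPM (median 23.3) in rIAPP (-1.04 ± 0.09, edgeR adjusted p = 5.76e-08). Irf7, a transcription factor of the response, was at 1.93 to 2.45 and 2.81 to 4.43 CPM (-0.76 ± 0.10, edgeR adjusted p = 9.15e-06). Usp18, a brake on interferon signalling, went the other way, at 26.1 to 32.6 CPM (median 28.5) in hIAPP, 7.36 to 10.2 CPM (median 8.56) in rIAPP and 19.3 to 26.1 CPM (median 23.0) in WT (1.74 ± 0.08, edgeR adjusted p = 8.12e-12). The genotypes did not overlap for any of these 3. Cxcl10, a chemokine induced by interferon, was low throughout, at 0.264 to 1.07 CPM (median 0.331) in hIAPP and 0.0144 to 0.158 CPM (median 0.0738) in rIAPP (2.59 ± 0.52, edgeR adjusted p = 7.84e-04), and highest in hIAPP 5.

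Lysosomal genes were higher almost without exception. Of 24 hydrolases and membrane proteins of the lysosome, 21 were higher, none lower and 3 did not pass, with a median of 0.36 (hIAPP minus WT 0.27, rIAPP minus WT -0.08). The count was 21 without hIAPP 5 and hIAPP 6 and 21 with the acinar score as a covariate. Grn, progranulin, was at 67.3 to 90.2 CPM (median 73.2) in hIAPP, 44.9 to 52.2 CPM (median 46.7) in rIAPP and 44.9 to 52.7 CPM (median 49.0) in WT (0.67 ± 0.07, edgeR adjusted p = 1.83e-07), and Psap, prosaposin, an activator of lipid hydrolases, at 815 to 947 CPM (median 901) and 582 to 705 CPM (median 604) (0.54 ± 0.06, edgeR adjusted p = 5.44e-07). The groups did not overlap for 17 of the 24 genes, Grn and Psap included, beside 13.4% over all genes. Macrophages are rich in lysosomes, and their summed marker level was 476 to 971 CPM in the same libraries against 126 to 142 in rIAPP. Its part in the lysosomal result was not tested.

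Of 18 autophagy genes, 6 were higher, 2 lower and 10 did not pass (median 0.05). Sqstm1, the p62 receptor that carries aggregates to autophagosomes, was at 331 to 465 CPM (median 338) in hIAPP, 241 to 317 CPM (median 287) in rIAPP and 257 to 297 CPM (median 266) in WT (0.38 ± 0.08, edgeR adjusted p = 0.00158). Ulk1, the kinase that starts autophagy, was at 17.3 to 22.4 and 11.7 to 16.8 CPM (0.46 ± 0.09, edgeR adjusted p = 9.38e-04). Every hIAPP library was above every rIAPP library for both. Optn, optineurin, was also higher (0.36 ± 0.06), although WT was at 24.4 to 30.4 CPM against 18.3 to 23.2 in hIAPP, and Wipi1 was lower (-0.18 ± 0.05).

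Cholesterol is made from acetyl-CoA through mevalonate, and the enzymes are switched on together by SREBP2 when the endoplasmic reticulum runs low in sterol. The title of the series names cholesterol synthesis, and all the gene lists were chosen with earlier results of these data known. The lists, those for sterol enzymes included, are therefore not independent evidence of their direction. Of 10 enzymes of the mevalonate pathway 7 were lower in hIAPP than in rIAPP and none higher (median -0.32). Of 11 enzymes of the later sterol steps 7 were lower and none higher (median -0.28). Against WT the medians were -0.46 and -0.48 for hIAPP and -0.15 and -0.08 for rIAPP. Without hIAPP 5 and hIAPP 6, 3 mevalonate enzymes and 5 later enzymes were lower and 1 later enzyme was higher (medians -0.24 and -0.26). The groups did not overlap for 2 of the 10 and 3 of the 11 genes, beside 13.4% over all genes.

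Hmgcs1, the HMG-CoA synthase, had the smallest p of these enzymes, at 44.5 to 65.5 CPM (median 53.5) in hIAPP, 73.8 to 112 CPM (median 84.8) in rIAPP and 79.8 to 117 CPM (median 87.2) in WT (-0.67 ± 0.11, edgeR adjusted p = 1.09e-04). All hIAPP libraries were below all rIAPP and WT libraries. The Hmgcs1 promoter is shown because this gene had the smallest p of the sterol enzymes, so the choice rests on these data. The 250 bases before its start (RefSeq, GRCm38.p6, chr13:119690101-119690350, plus strand) read as follows, 5′ to 3′, with the sterol regulatory element TCACCCCAC in capitals, 137 bases before the start.
Hmgcs1: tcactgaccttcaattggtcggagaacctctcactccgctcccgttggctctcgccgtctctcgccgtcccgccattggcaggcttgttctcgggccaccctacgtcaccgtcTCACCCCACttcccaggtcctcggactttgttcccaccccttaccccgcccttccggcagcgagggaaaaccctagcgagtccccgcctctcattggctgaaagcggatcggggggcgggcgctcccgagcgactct
The motif was searched on both strands in windows from 250 bases before to 50 after the start. It was found in 181 of 32851 promoters (0.551%) and, of the 16 of 21 sterol enzymes with an entry, in Hmgcs1 alone. An E box searched the same way (CAGATG) was in 17.2% of all promoters and 3 of the 16, and an A box (TAATTA) in 5.29% and 1 of the 16. The match is a description of letters, not of binding.

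Among the other enzymes, Msmo1, a sterol methyl oxidase, was at 31.7 to 53.7 CPM (median 44.3) in hIAPP and 53.8 to 89.3 CPM (median 62.7) in rIAPP (-0.65 ± 0.13, edgeR adjusted p = 5.85e-04). Idi1, the isomerase of isopentenyl diphosphate, was at 9.21 to 17.1 CPM (median 12.0) and 14.99 to 24.8 CPM (median 19.0) (-0.67 ± 0.15, edgeR adjusted p = 0.00200). Cyp51, a demethylase of lanosterol, and Sqle, squalene epoxidase, differed by -0.47 ± 0.10 and -0.38 ± 0.07 (edgeR adjusted p = 0.00171 and 5.04e-04). The ranges overlapped for Idi1, Cyp51 and Sqle but not for Msmo1.

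Genes of sterol uptake and SREBP control were called in 6 of 17 cases, 5 higher and 1 lower. That was 35.3%, beside 27.6% over all genes and 32.4% of protein-coding genes. The higher genes included Vldlr, a lipoprotein receptor (0.52 ± 0.12), Npc2, a lysosomal sterol carrier (0.34 ± 0.06), and Scap, the sterol sensor that escorts SREBP (0.35 ± 0.07). Their edgeR adjusted p were 0.00235, 4.17e-04 and 5.51e-04. Of these, only the Scap ranges did not overlap.

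Of 15 genes of cholesterol efflux, esterification and oxysterols, 6 were higher, 2 lower and 7 did not pass (median 0.04), with 5 lower without hIAPP 5 and hIAPP 6. Apoe, the lipoprotein of macrophages and other cells, was at 1073 to 1640.5 CPM (median 1279) in hIAPP, 355 to 440.0 CPM (median 405) in rIAPP and 361 to 428 CPM (median 405) in WT (1.74 ± 0.09, edgeR adjusted p = 3.04e-11). Abcg1, a sterol exporter, was at 74.9 to 82.1 and 48.7 to 67.2 CPM (0.46 ± 0.07, edgeR adjusted p = 1.76e-05), with WT (67.7 to 80.3) near hIAPP. Both pairs of ranges were apart. Nr1h3, the sterol-sensing receptor LXR alpha, was higher (0.42 ± 0.10), while Apoc1 (-0.67 ± 0.18) and the oxysterol synthase Ch25h (-1.37 ± 0.33) were lower (edgeR adjusted p = 0.00248, 0.00922 and 0.00354).

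Fatty acid genes showed no common direction, with 5 of 17 higher, 4 lower and 8 not passing (median -0.01). The desaturase Fads2 was at 22.6 to 30.2 CPM (median 27.2) in hIAPP, 33.3 to 42.5 CPM (median 36.3) in rIAPP and 39.3 to 47.0 CPM (median 43.4) in WT (-0.48 ± 0.08, edgeR adjusted p = 5.55e-05). The elongase Elovl7 was lower (-1.26 ± 0.11) and Elovl4 and Elovl5 were higher in hIAPP (0.58 ± 0.12 and 0.59 ± 0.12). For Elovl7 the rIAPP libraries (5.25 to 6.52 CPM) stood above hIAPP (1.79 to 2.73) and WT (1.98 to 2.68).

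ATF4 and CHOP are transcription factors of the integrated stress response, which slows translation and, if it lasts, favours cell death. Of 17 of their regulators and targets, 4 were higher in hIAPP than rIAPP, none lower and 13 did not pass. This was 23.5% called, beside 27.6% over all genes. The median was 0.28, beside 1.08 for hIAPP minus WT and 0.76 for rIAPP minus WT. Ddit3, which encodes CHOP, was at 28.4 to 65.0 CPM (median 34.3) in hIAPP, 17.3 to 24.7 CPM (median 21.5) in rIAPP and 11.9 to 19.0 CPM (median 15.1) in WT (0.87 ± 0.17, edgeR adjusted p = 4.89e-04). Stc2, a secreted glycoprotein of the response, was at 12.4 to 20.5 CPM (median 15.7), 3.37 to 6.76 CPM (median 4.12) and 7.85 to 10.5 CPM (median 8.36) (1.80 ± 0.17, edgeR adjusted p = 1.14e-07). No rIAPP library reached the hIAPP range for either gene. Trib3, a pseudokinase induced by CHOP, was at 5.41 to 21.0 CPM (median 7.78) in hIAPP, 2.23 to 6.18 CPM (median 4.37) in rIAPP and 0.724 to 1.59 CPM (median 1.203) in WT (1.12 ± 0.29, edgeR adjusted p = 0.00681), with ranges that overlapped and a call that was lost without hIAPP 5 and hIAPP 6. Without those libraries the list held 2 higher and 2 lower genes (median 0.05).

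Amino acid genes driven by ATF4 had medians of 0.72 and 0.76 against WT in hIAPP and rIAPP, and of 0.07 between them, with 2 of 20 higher and 2 lower. Without hIAPP 5 and hIAPP 6 none was higher and 4 were lower (median -0.15), and with the acinar score as a covariate 5 were higher and 2 lower. Slc1a5, a glutamine transporter, was lower in hIAPP than in rIAPP (-0.38 ± 0.10, edgeR adjusted p = 0.00686), with medians of 3.95 and 5.15 CPM beside 2.81 in WT. Of 26 chaperones and folding stress genes of the endoplasmic reticulum, 4 were higher, 5 lower and 17 did not pass (median -0.06). The share called was 34.6%, beside 27.6% over all genes and 32.4% of protein-coding genes. Eif2ak3, the stress sensor PERK, was at 51.2 to 68.1 CPM (median 58.8) in hIAPP, 71.8 to 79.6 CPM (median 77.1) in rIAPP and 52.2 to 60.1 CPM (median 59.5) in WT (-0.36 ± 0.06, edgeR adjusted p = 9.99e-05). Edem1, which sends misfolded glycoproteins to degradation, was at 74.3 to 93.3 and 56.4 to 63.8 CPM (0.45 ± 0.06, edgeR adjusted p = 6.66e-06). Neither pair overlapped. Hsp90b1, the chaperone GRP94, differed by -0.34 ± 0.08 with overlapping ranges.

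Of 31 proteasome subunits, 1 was called, Psmd11 (0.22 ± 0.06, edgeR adjusted p = 0.00847), and its call was lost when hIAPP 5 and hIAPP 6 were left out. Cytosolic heat shock genes were higher in 3 of 15 cases (20%, beside 27.6% called over all genes), with none lower and all 15 values above 0 (median 0.28). Hsph1, a chaperone of the HSP110 family, was at 77.2 to 184 CPM (median 123) in hIAPP and 56.1 to 102 CPM (median 77.6) in rIAPP (0.70 ± 0.21, edgeR adjusted p = 0.0157), and the ranges overlapped. With the acinar score as a covariate 1 heat shock gene was called. Of 37 respiratory chain genes, 2 were lower and none higher (median -0.03), and without hIAPP 5 and hIAPP 6 none was lower and 2 were higher. Of 16 p53 targets 2 were higher and 2 lower (median 0.03), with 25% called, near the share over all genes.

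Redox genes held a few large differences. Of 19 targets of NRF2 and metallothioneins, 8 were higher, none lower and 11 did not pass (median 0.11). Without hIAPP 5 and hIAPP 6, 7 were higher and 2 lower. Nqo1, a quinone reductase, was at 3.39 to 5.19 CPM (median 4.61) in hIAPP, 0.594 to 1.23 CPM (median 0.907) in rIAPP and 2.06 to 4.88 CPM (median 4.23) in WT (2.27 ± 0.20, edgeR adjusted p = 3.61e-08). The metal-binding proteins Mt1 and Mt2 were at 216 to 399 CPM (median 364) and 40.9 to 83.3 CPM (median 66.5) in hIAPP and at 115 to 161 CPM (median 146) and 17.4 to 27.0 CPM (median 24.8) in rIAPP (1.25 ± 0.16 and 1.42 ± 0.20, edgeR adjusted p = 5.57e-06 and 1.31e-05). All 3 genes were lower in rIAPP than in hIAPP with no overlap, and their hIAPP and WT ranges overlapped. The WT range of Mt2 (23.1 to 62.9 CPM) also overlapped rIAPP, unlike those of Nqo1 and Mt1.

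Endothelial markers were lower in hIAPP in 17 of 18 cases, and only Sox17 did not pass (-0.29 ± 0.20, edgeR adjusted p = 0.313). The median log2 fold change was -0.51 (hIAPP minus WT -0.14, rIAPP minus WT 0.38). The summed level was 744 to 890 CPM in hIAPP, 1073 to 1208 in rIAPP and 834 to 957 in WT, so hIAPP and rIAPP libraries did not overlap and WT shared values with hIAPP. Pecam1, an adhesion protein of all endothelium, was at 73.7 to 99.7 CPM (median 80.2) in hIAPP and 116 to 138 CPM (median 132) in rIAPP (-0.62 ± 0.07, edgeR adjusted p = 1.73e-06). Tek, the angiopoietin receptor, was at 17.1 to 24.0 CPM (median 19.9), 28.4 to 35.6 CPM (median 32.6) and, in WT, 22.3 to 26.9 CPM (median 25.1) (-0.70 ± 0.08, edgeR adjusted p = 1.05e-06). Emcn, endomucin, differed by -0.64 ± 0.08 (edgeR adjusted p = 6.48e-06). All 18 markers were lower when hIAPP 5 and hIAPP 6 were left out.

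Ligands that act on vessels were called in 6 of 12 cases, 2 higher and 4 lower (median -0.33). Vegfc, a ligand of lymphatic and vascular receptors, was at 1.155 to 2.31 CPM (median 1.96) in hIAPP, 4.25 to 5.79 CPM (median 5.20) in rIAPP and 1.82 to 2.83 CPM (median 2.28) in WT (-1.46 ± 0.14, edgeR adjusted p = 1.69e-07). Sema3c, a secreted semaphorin, was at 6.28 to 12.6 CPM (median 10.1), 20.3 to 29.1 CPM (median 24.2) and 5.87 to 8.05 CPM (median 7.10) (-1.31 ± 0.13, edgeR adjusted p = 2.61e-07). Both were high in rIAPP alone. Vegfb was higher in hIAPP, at 11.7 to 13.4 and 6.90 to 8.36 CPM (0.72 ± 0.07, edgeR adjusted p = 1.55e-07).

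Pericyte, stellate and fibroblast markers were higher in 3 and lower in 3 of 15 cases (median -0.23, beside 0.56 for hIAPP and 0.74 for rIAPP against WT), and 5 were lower without hIAPP 5 and hIAPP 6. The 3 higher genes are known from pericytes: Rgs5 (456 to 707 and 371 to 461 CPM, 0.60 ± 0.10), Notch3 (0.62 ± 0.11) and Pdgfrb (0.40 ± 0.08), with edgeR adjusted p of 7.35e-05, 2.59e-04 and 8.29e-04. The lower genes included Dcn, decorin, a matrix protein of fibroblasts, at 52.2 to 120.4 CPM (median 91.5) in hIAPP and 161 to 206 CPM (median 171) in rIAPP (-0.98 ± 0.15, edgeR adjusted p = 4.79e-05), and Pdgfra. Kcnj8, a potassium channel of pericytes, was also lower (-1.42 ± 0.14, edgeR adjusted p = 1.57e-07), so pericyte genes were found on both sides.

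Ductal markers were lower in 7 of 15 cases and higher in 1 (median -0.38). Tspan8, a tetraspanin, was at 10.5 to 13.6 CPM (median 12.2) in hIAPP, 36.3 to 52.3 CPM (median 45.2) in rIAPP and 13.7 to 18.6 CPM (median 16.5) in WT (-1.87 ± 0.10, edgeR adjusted p = 3.03e-11). Cldn4, a tight junction protein, was at 20.7 to 33.3 CPM (median 24.96), 52.8 to 82.6 CPM (median 75.9) and 20.3 to 29.3 CPM (median 27.5) (-1.50 ± 0.13, edgeR adjusted p = 2.42e-08). No hIAPP library reached the rIAPP range for these. Acinar markers were called in 2 of 31 cases, both lower, with a median of -0.41 beside differences from WT of 1.87 in hIAPP and 2.31 in rIAPP. Without hIAPP 5 and hIAPP 6, 5 were lower (median -1.06). With the acinar score as a covariate 3 were higher and 1 lower (median 0.04). That score is the mean log2 CPM of these same markers, so a median near 0 follows from the fit and tests nothing. The hIAPP and rIAPP ranges overlapped for all 31 acinar markers, where 13.4% of all genes had ranges that did not. Of 11 Schwann cell markers 1 was higher, and of 6 erythroid markers none was called.

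Signals of the TGF-beta family were called in 16 of 33 cases, 8 higher and 8 lower (median -0.08). The lower count was 4 without hIAPP 1, without rIAPP 2 or with the acinar score as a covariate, and 5 without hIAPP 3 or without rIAPP 4. Inhba, which encodes a subunit of activin, was at 0.413 to 0.758 CPM (median 0.497) in hIAPP, 1.33 to 2.19 CPM (median 1.66) in rIAPP and 0.268 to 0.481 CPM (median 0.367) in WT (-1.70 ± 0.19, edgeR adjusted p = 1.03e-06). Acvr1c, a receptor for activin and nodal ligands that limits beta cell function, was at 5.31 to 11.8 CPM (median 7.76), 1.85 to 2.81 CPM (median 2.05) and 7.09 to 10.7 CPM (median 9.69) (1.86 ± 0.16, edgeR adjusted p = 3.80e-08). Bmp6 was lower in hIAPP (-1.25 ± 0.14) and the receptor Tgfbr1 higher (0.66 ± 0.07), with edgeR adjusted p of 1.01e-06 and 4.90e-07. The genotypes were apart for all 4. Axon guidance genes, apart from Sema5a, also went both ways, with 7 of 35 higher and 11 lower in all. The receptor Robo1 was higher in hIAPP (55.7 to 73.1 against 36.7 to 49.9 CPM, 0.65 ± 0.07), and the semaphorin Sema3e (-1.195 ± 0.10) and the netrin Ntn4 (-0.88 ± 0.11) were lower.

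Enzymes of amino acid breakdown included some of the largest metabolic differences, and 7 of 17 were called (27.6% over all genes), 1 higher and 6 lower (median -0.08). Aass, the first enzyme of lysine breakdown, was at 6.81 to 13.1 CPM (median 9.10) in hIAPP, 46.4 to 90.1 CPM (median 72.8) in rIAPP and 1.71 to 3.14 CPM (median 2.44) in WT (-2.91 ± 0.17, edgeR adjusted p = 7.93e-11). Bcat1, the cytosolic branched-chain aminotransferase, was at 0.678 to 2.30 CPM (median 1.004), 6.01 to 8.93 CPM (median 7.53) and 0.330 to 1.03 CPM (median 0.507) (-2.58 ± 0.27, edgeR adjusted p = 4.33e-07). For Aass the order was rIAPP, hIAPP, WT with no overlap between any of the 3. Glycolysis enzymes were called in 5 of 16 cases (31.25%, near the share over all genes), 2 higher and 3 lower. Eno2, neuronal enolase (0.71 ± 0.06), and the regulator Pfkfb2 (0.72 ± 0.10) were the higher genes (edgeR adjusted p = 4.13e-08 and 1.23e-05).

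Cell proliferation genes were higher in 4 of 20 cases and lower in 1 (25% called, 27.6% over all genes), with a median of 0.53. Without hIAPP 5 and hIAPP 6, 12 were higher (median 0.77). Without hIAPP 6 alone 9 were higher, and without hIAPP 4 alone 2. Ccnd2, the main D-type cyclin of beta cells, was at 669 to 831 CPM (median 724) in hIAPP, 377 to 555 CPM (median 439) in rIAPP and 676 to 886 CPM (median 753) in WT (0.74 ± 0.09, edgeR adjusted p = 1.98e-06). Mcm2, a subunit of the replicative helicase, was the lower gene (-0.54 ± 0.11, edgeR adjusted p = 8.47e-04). Of 16 circadian genes 4 were higher and none lower (median 0.40), with 25% called beside 27.6% over all genes. Cry2, a repressor of the clock, was at 107 to 149 CPM (median 136) in hIAPP and 59.3 to 98.0 CPM (median 75.2) in rIAPP (0.80 ± 0.12, edgeR adjusted p = 5.05e-05), with no overlap, and Per2 differed by 0.63 ± 0.17 with ranges that overlapped. Of 19 immediate early genes, 1 was higher and 1 lower.

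**Figure D5:**
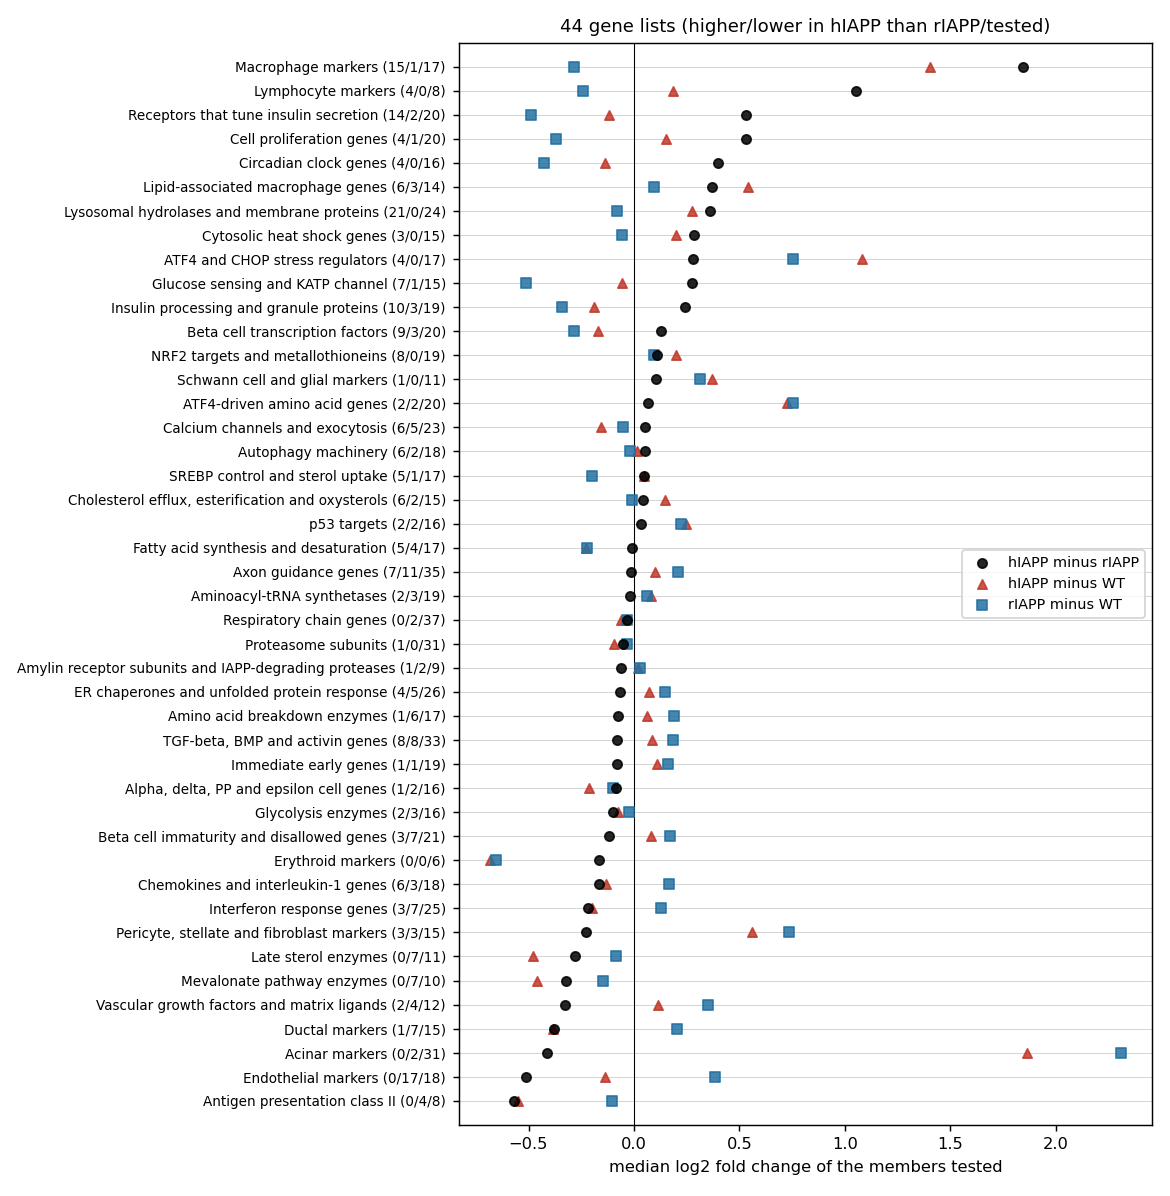
Median log2 fold change of the tested members of each of 44 gene lists, for hIAPP minus rIAPP (black circles), hIAPP minus WT (red triangles) and rIAPP minus WT (blue squares), with the counts higher, lower and tested for hIAPP against rIAPP in brackets. The 3 comparisons share libraries. Macrophage markers have the highest median for hIAPP minus rIAPP and class II antigen presentation genes the lowest.

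Libraries of the same genotype varied about equally. Over 14122 genes with a mean of at least 1 CPM, the median SD of log2 CPM was 0.146 in hIAPP, 0.137 in rIAPP and 0.133 in WT. The SD was larger in hIAPP than in rIAPP for 53.7% of these genes, and for 37.7% without hIAPP 5 and hIAPP 6. An SD over fewer libraries tends to come out smaller, so these shares are not directly comparable. Library hIAPP 5 was the highest hIAPP library for Lyz2, Trem2, Gpnmb and Cd4, and the lowest for Mafa.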

How the data were processed

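RNA from islets of hIAPP, rIAPP and WT mice, 6 libraries each, was sequenced. Per the submitters' processing notes, STAR and HTSeq and the GRCm38 and mm10 builds were used; the strand setting is not given in the sources used here. The authors deposited 1 table of estimated counts for 54186 gene symbols and 18 libraries, of which 39.2% of the values above 0 were not whole. These were rounded to whole numbers. Groups were taken from the genotype in the labels.

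Counts were scaled with TMM and genes with low counts were filtered by genotype (edgeR 4.0.16, R 4.3.3), and 20244 genes were tested with the edgeR quasi-likelihood F test, two-sided. All 18 libraries shared the estimate of the spread, and p-values were adjusted by the Benjamini-Hochberg method over all genes tested. Gene positions came from GENCODE M21. Fold changes used a prior count of 0.125. The smallest total was 110 M counts. In counts simulated on the same design, 4% of genes changed 1.2-fold were recovered, 54% at 1.5-fold, 70% at 2-fold and 78% at 4-fold, of 50 each and 20001 genes run. Only those genes were changed in the simulation, where 103 of them were called, against 5586 genes in the data. The adjustment of p was therefore stricter there, so the rates do not give the share of differences missed in this contrast.

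Genes named were Iapp, the 10 with the smallest p in each direction, the 15 properly named genes with the largest fold change in each direction (mean of 1 CPM or more in the genotype where they were high), and up to 3 members in each direction with the smallest p from each of 44 lists. This rule picks 212 genes. Named outside it, after their values were seen, were the hormone genes Ins1, Ins2, Gcg, Sst and Ppy, the beta cell genes Mafa, Slc2a2 and Glp1r, Cd14 and Sox17 as the only members of their lists that did not pass, and the neighbours Sdc2, Cpq, Pter and Gm37811. Of the genes picked, those not described singly are in the counts of their lists. Some genes are not reported here. Members and lists were chosen with earlier results of these data known. Alternatives comprised other scalings and filters, DESeq2 1.42.0, limma 3.58.1 (voom), covariates, other thresholds and leaving out libraries.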

Additional observations from a re-analysis of the deposited data

Results flagged for a closer look

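In 26 of 310 groups of 6 libraries, over the genes named in the text (Cd22 aside) and 5 measures of the libraries, the highest or lowest library lay far from the other 5, by Dixon's 95% critical value for the gap over the whole range. Chance gives about 5% of groups, or about 1 in 20, so some are to be expected from that alone.

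In hIAPP the library furthest out was most often hIAPP 5. It was at 13.7 CPM of Atp6v0d2 (1.06 to 4.42 in the others), 73.9 CPM of Gpnmb (12.0 to 33.6), 4.70 CPM of Cd4 (1.44 to 2.12) and 1.07 CPM of Cxcl10 (0.264 to 0.561), and it was low for Optn at 18.3 CPM (22.1 to 23.2). For hIAPP 6 it was 65.0 CPM of Ddit3 (28.4 to 41.2), 21.0 CPM of Trib3 (5.41 to 8.30) and 6.06 CPM of Ptger3 (4.08 to 4.70). For hIAPP 4 it was 2.81 CPM of Fat3, 76.6 CPM of Lpl, 11.1 CPM of Mcm2 (6.85 to 7.43) and 7.01 CPM of Slc38a5. Ramp3 was lowest in hIAPP 3, at 2.70 CPM.

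In rIAPP the library furthest out was most often rIAPP 6. It was at 1229.6 CPM of Ero1b (452 to 639 in the others), 4.43 CPM of Elovl4, 49.9 CPM of Robo1 and 86.7 CPM of Tgfbr1, and it was low for Stx1a at 7.54 CPM. rIAPP 3 was low for Mnx1 (4.54 CPM) and Mt2 (17.4 CPM) and high for Sema5a (8.87 CPM). rIAPP 4 was high for Psap (705 CPM), rIAPP 1 was low for Emcn (52.9 CPM), and rIAPP 2 was high for Pter (3.15 CPM). rIAPP 5 was high for Atp6v0d2 (0.0440 CPM) and low for Il7r (0.308 CPM).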

How the results depend on the processing

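Of the 145 called genes that the text names, Cd22 aside, 137 kept their direction and call in every alternative that tested them (28 or 29). The other 8 lost the call in at least 1, Hsph1 and Mme only at an adjusted p under 0.01. Many of the named genes were picked by their p or fold in the same fit, so keeping the call is not independent support. An adjusted p under 0.10 could not lose a call, and a prior count of 0.5 shared all calls. The Cd14 value, which was not called, changed sign with the acinar score as a covariate (-0.052), with the mouse number as a covariate (-0.033), and without hIAPP 4, rIAPP 2 or rIAPP 6. It ranged from -0.19 to 0.12 when each library was left out in turn. Among all genes, 5586 were called, and 4865 to 5718 when each of the 12 libraries was left out in turn. With DESeq2 6124 were called and with limma-voom 6762. An adjusted p under 0.01 left 3617 genes, 1812 higher and 1805 lower. With a filter of at least 1 CPM in 6 libraries, 656 genes were at least 2-fold instead of 1280, because fewer genes of low level were tested. Of all 5586 calls, 79.0% were shared without hIAPP 5 and hIAPP 6. When each library was left out in turn, 85.5% to 92.9% were shared. No scaling moved the median over all genes by more than 0.01, and calls higher in hIAPP made up 46.7% to 50.1% in every alternative. Depth limits genes near 0, such as Atp6v0d2 and C1ql3, whose fold changes depend on the prior count. No paired analysis was possible because the titles give each library its own mouse number and the genotypes share none.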
